A study of Homo sapiens with 12 samples.

Results

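LIF, CISH and SOCS1 to SOCS7 are 9 genes of cytokine signalling and its feedback, chosen by symbol from a table of 19901 protein-coding genes. All 9 were matched to the Ensembl identifiers of the table, and all 9 passed the filter on low counts (13093 genes tested). They were followed in HCT116 cells, a human line from a colorectal carcinoma, engineered so that endogenous KAP1 (gene TRIM28) carries a C-terminal degradation tag, so that the ligand dTAG causes its removal by the proteasome. All 12 libraries came from the same tagged clone (D5), including the controls, and no untagged cells were analysed here. Cells were kept in serum-free medium for 48 h, with DMSO or dTAG present for the last 8 h. The 4 groups of 3 libraries were named by treatment and serum. DMSO-S0 and dTAG-S0 received no serum, and DMSO-S30 and dTAG-S30 received serum for 30 min. The study asked how KAP1 loss alters the transcriptional response to serum. The methods describe the libraries of a group as biological replicates.

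LIF (leukemia inhibitory factor) is a secreted cytokine of the IL-6 family that signals through the LIFR and IL6ST (gp130) receptor chains, the JAK kinases bound to them and STAT3. CISH and the SOCS proteins share an SH2 domain, which recognises phosphorylated tyrosines, and a SOCS box, which recruits elongins and a cullin to form a ubiquitin ligase. CISH, SOCS1, SOCS2 and SOCS3 are the classical feedback inhibitors that are induced by cytokines through STAT factors and then dampen the same receptors. SOCS4 to SOCS7 are longer proteins that have been linked mainly to receptor tyrosine kinases and insulin signalling.

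Promoter sequence is shown for the 3 classical feedback genes with an entry in the RefSeq promoter table (GRCh38.p14), because STAT binding is the known route of their induction. Each line gives the 250 bases before the start site, 5′ to 3′ on the gene's strand, in lower case, with matches to the STAT motif TTCNNNGAA in capitals. This motif is its own reverse complement, so both strands are covered. The CISH start site is at chr3:50611774-50611774, that of SOCS1 at chr16:11256204-11256204 and that of SOCS3 at chr17:78360925-78360925, all on the minus strand.

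CISH: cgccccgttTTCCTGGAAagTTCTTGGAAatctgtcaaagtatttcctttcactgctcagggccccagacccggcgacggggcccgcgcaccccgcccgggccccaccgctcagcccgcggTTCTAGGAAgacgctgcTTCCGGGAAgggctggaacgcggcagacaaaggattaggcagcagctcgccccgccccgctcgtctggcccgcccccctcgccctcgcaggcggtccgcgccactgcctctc

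SOCS1: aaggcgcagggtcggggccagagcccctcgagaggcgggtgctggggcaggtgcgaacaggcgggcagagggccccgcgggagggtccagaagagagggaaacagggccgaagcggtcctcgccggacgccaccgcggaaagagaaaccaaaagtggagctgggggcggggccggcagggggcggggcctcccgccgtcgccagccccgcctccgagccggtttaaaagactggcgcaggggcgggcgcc

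SOCS3: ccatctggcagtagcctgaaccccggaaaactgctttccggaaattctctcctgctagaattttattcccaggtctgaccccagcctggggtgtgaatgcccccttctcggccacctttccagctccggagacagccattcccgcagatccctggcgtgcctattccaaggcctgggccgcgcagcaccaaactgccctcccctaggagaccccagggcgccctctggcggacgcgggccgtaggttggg

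The CISH window held 4 STAT motifs, at positions -241, -230, -129 and -112 relative to the start site. Of 34796 RefSeq windows of the same 300 bases (250 before and 50 after the start), 7.67% held at least 1. No match was found in the windows of SOCS1, SOCS3 (both of its 2 windows), SOCS4 or SOCS6. Searches on both strands for a cAMP response element (TGACGTCA, in 1.84% of windows), an AP-1 motif (TGANTCA, 7.73%), a TATA box (TATAAA, 11.6%) and the CArG box of serum response factor (1.30%) found no match in the 6 windows of these 5 genes. An EGR motif (GCGTGGGCG, 0.793% of windows) was found only in SOCS4, 121 bases before its start. The SOCS3 start site shown lies 848 bases upstream of the gene start in the count table, and a second RefSeq start site lies 410 bases inside it. Neither SOCS3 window covers the bases directly before the gene start in the count table, so these bases were not searched for motifs. LIF, SOCS2, SOCS5 and SOCS7 had no entry. A match is a description of the letters in the window and not a binding site.

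Gene counts were 18658747 to 23861254 per library and ERCC spike-ins took 7.97% to 9.37% of all counts. TRIM28 transcript did not pass the test with dTAG (log2 fold change -0.06 without serum and -0.04 with serum, edgeR adjusted p = 0.802 and 0.892), and as degradation removes protein and not RNA, this transcript does not report KAP1 loss. The epithelial markers EPCAM, CDH1, KRT8, KRT18, KRT19 and CDX2 were expressed in every library, while VIL1 and CDH17 had at most 7 counts. In CPM (counts relative to the library's gene counts, here without further scaling), the summed epithelial markers were at 1159 to 1220 in DMSO-S0, 1302 to 1376 in DMSO-S30, 1212 to 1334 in dTAG-S0 and 1372 to 1564 in dTAG-S30. Of the 5 fibroblast markers only COL1A1 was above 1 CPM, and the summed list was at 13.9 to 16.6 CPM in DMSO-S0, 77.0 to 84.3 in DMSO-S30, 12.7 to 15.4 in dTAG-S0 and 64.7 to 77.7 in dTAG-S30. COL1A1 carried this rise with serum, while COL1A2 and DCN had at most 1 and 2 counts in any library. The 5 immune markers summed to 4.09 to 6.42 CPM and the 3 endothelial markers to 1.38 to 3.05 CPM over all libraries. The part of these shifts in the results was not tested. In bulk libraries, a change in RNA per cell and a change in the share of cells that express a gene cannot be told apart.

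Counts were taken over whole genes, introns included, so levels of different genes are compared only after division by gene length. On the scale of normalised CPM (relative to the library size after upper-quartile scaling) per kb of gene span, SOCS3 had the highest mean in both groups without serum and LIF in both groups with serum. In DMSO-S0 the level of SOCS3 was 5.14 CPM per kb (5.05 to 5.31), that of LIF 4.0 (3.70 to 4.50), that of SOCS4 3.12 and that of SOCS6 2.45. SOCS1 at 1.69, SOCS7 at 1.6 and SOCS2 at 1.54 CPM per kb followed with overlapping libraries. SOCS5 at 1.18 and CISH at 0.922 CPM per kb were lowest and did not overlap each other. In dTAG-S0 the libraries of SOCS3 (4.68 to 6.01 CPM per kb) overlapped those of LIF (4.51 to 4.84). In DMSO-S30 the level of LIF was 9.02 CPM per kb (8.56 to 9.75) and overlapped that of SOCS3, 8.53 (8.04 to 8.86). In dTAG-S30 LIF, at 9.68 (8.85 to 10.4), no longer overlapped SOCS3, at 7.20 (6.34 to 7.88). In these same libraries SOCS4 and SOCS6 were at 3.45 CPM per kb each, with overlapping libraries.

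**Figure D1:**
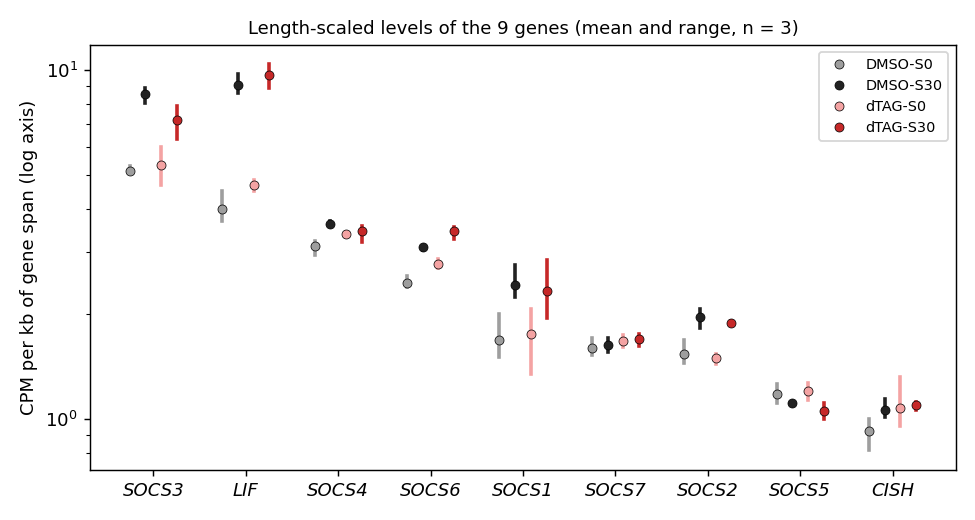
Normalised CPM per kb of gene span (log axis) for the 9 genes, ordered by their mean in DMSO-S0. Points are means and vertical lines the range of 3 libraries in each of the 4 groups; LIF and SOCS3 stand above the other members in all groups, and CISH and SOCS5 are at about 1 CPM per kb.

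The exonic share of the counted span differed widely, from 99.3% of the 1.80 kb of SOCS1 and 94.6% of the 5.34 kb of CISH to 14.1% of the 41.3 kb of SOCS6 and 7.68% of the 64.2 kb of SOCS5 (GENCODE v44). A level per kb of span therefore weighs spliced RNA less in the long members. LIF, SOCS3, SOCS2, SOCS4 and SOCS7 lay between, at 60.4% of 6.41 kb, 82.8% of 3.30 kb, 47.4% of 13.7 kb, 31.6% of 22.3 kb and 16.2% of 53.4 kb.

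Serum raised 6 of the 9 genes in DMSO-treated cells at an edgeR adjusted p under 0.05 (DMSO-S30 against DMSO-S0), and lowered none. LIF rose 2.32-fold, SOCS3 1.67-fold and SOCS1 1.54-fold, and SOCS2, SOCS6 and SOCS4 rose by smaller steps of 1.30-, 1.27- and 1.17-fold. Over all genes tested 25.9% were called, 9.23% as higher and 16.6% as lower. The median log2 fold change was 0.34 over the 9 genes and -0.07 over all genes tested. The share of higher calls among all called genes depended on scaling, at 35.7% here, 61.5% under TMM scaling, 66.5% with library sizes from the spike-ins and 60.3% in DESeq2, while the same number of members (6 higher) was called under each.

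LIF (ENSG00000128342.4, hg38 chr22:30240447-30246851, minus strand) was at 28.8, 23.7 and 24.3 normalised CPM in the DMSO-S0 libraries and at 54.9, 56.1 and 62.5 in DMSO-S30. Every library with serum was far above every library without. The means were 25.6 ± 2.78 CPM (SD, n = 3) and 57.8 ± 4.08 CPM (SD, n = 3), and the fitted log2 fold change was 1.22 (standard error, SE, 0.0803, edgeR adjusted p = 2.15e-12). Of the 13093 genes tested, LIF ranked 222 by the size of its rise. Its ends overlap the antisense transcripts LIF-AS1 (92 bases) and LIF-AS2 (647 bases), and whether counting used strand is not given in the sources used here.

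SOCS3 (ENSG00000184557.4, chr17:78356778-78360077, minus strand), which binds gp130 and blocks the JAK kinases attached to it, was the SOCS gene with the largest rise. It was at 16.7, 17.5 and 16.7 CPM in DMSO-S0 and at 26.5, 28.7 and 29.2 CPM in DMSO-S30, and the groups did not overlap. The means were 17 ± 0.484 and 28.2 ± 1.42 CPM (SD, n = 3). The fitted log2 fold change was 0.74 (SE 0.0979, edgeR adjusted p = 1.48e-06), ranked 445 of all genes tested. GENCODE v44 places no other gene over SOCS3.

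SOCS1 (ENSG00000185338.5, chr16:11254405-11256200, minus strand), the inhibitor best known from interferon signalling, had the fewest reads of the members, with 56 to 113 counts per library. Its level was 3.6, 2.7 and 2.8 CPM in DMSO-S0 and 4.02, 4.05 and 4.98 CPM in DMSO-S30. The groups did not overlap, but the highest library without serum was close to the lowest with it. The log2 fold change was 0.62 with a 95% confidence interval of 0.23 to 1.01 (edgeR adjusted p = 0.0162), and without DMSO-S30 replicate 3 it was 0.52 and not past the threshold (adjusted p = 0.0890). SOCS1 lies wholly inside RMI2 on the other strand, and RMI2 itself was not called (log2 fold change -0.20, edgeR adjusted p = 0.0972).

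CISH (ENSG00000114737.15, chr3:50606490-50611831, minus strand), the classical STAT5 target, did not pass the test. Its levels were 5.08, 4.35 and 5.35 CPM in DMSO-S0 and 5.54, 5.42 and 6.09 CPM in DMSO-S30, which did not overlap by a narrow margin. The log2 fold change was 0.20 (95% interval -0.12 to 0.52, edgeR adjusted p = 0.361) on 95 to 150 counts per library, so a rise of the size of that of SOCS3 lay outside the interval and one like that of SOCS2 lay inside. Its promoter window is the only one of the 6 with STAT motifs. The first 312 bases of CISH overlap MAPKAPK3 on the other strand, and MAPKAPK3 rose (log2 fold change 0.18, edgeR adjusted p = 0.0421).

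SOCS2 (ENSG00000120833.13, chr12:93569814-93583487, plus strand), the feedback inhibitor of growth hormone signalling, was at 23.0, 20.1 and 19.9 CPM in DMSO-S0 and at 27.2, 24.9 and 28.3 CPM in DMSO-S30. The libraries did not overlap. The log2 fold change was 0.38 (SE 0.0830, edgeR adjusted p = 0.00121). Its start overlaps SOCS2-AS1 on the other strand over 1955 bases.

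**Figure D2:**
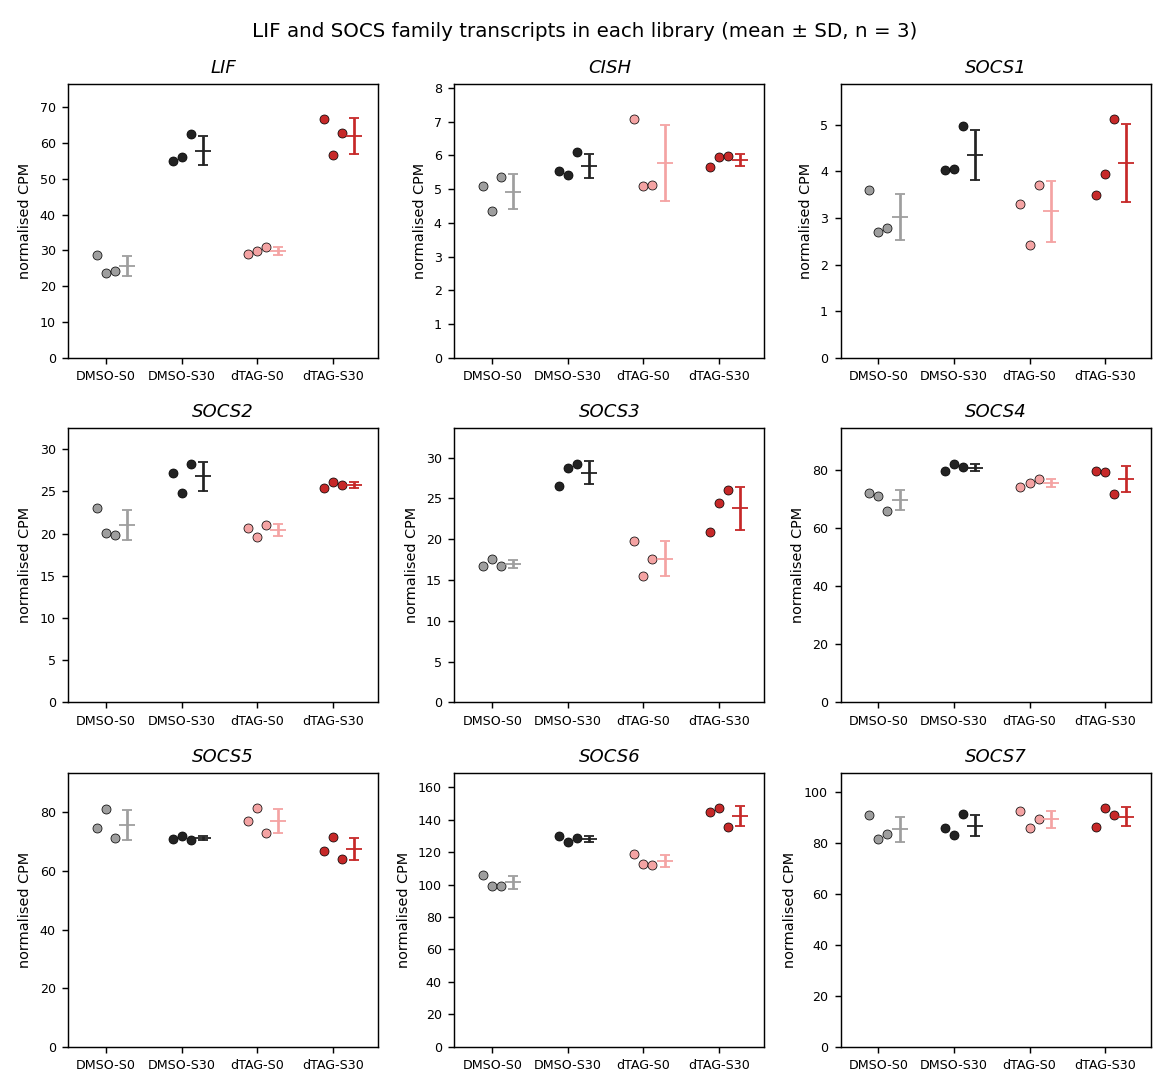
Normalised CPM of each of the 9 genes (vertical axes from 0, scaled per gene) in the 12 libraries, with 3 points per group and the group mean ± SD to their right. LIF separates libraries with serum (54.9 to 66.5 CPM) from those without (23.7 to 31.0 CPM), SOCS2, SOCS3 and SOCS6 do so by smaller steps, and SOCS7 is level across the groups.

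Of the long members, SOCS6 and SOCS4 rose. SOCS6 (ENSG00000170677.5, chr18:70288901-70330200, plus strand), an adaptor linked to insulin and KIT receptor signalling, was at 106, 98.9 and 99.3 CPM in DMSO-S0 and at 130, 126 and 129 CPM in DMSO-S30. These groups were well apart, with a log2 fold change of 0.34 (SE 0.0583, edgeR adjusted p = 6.57e-05). SOCS4 (ENSG00000180008.8, chr14:55027230-55049488, plus strand), linked to EGF receptor turnover, was at 71.8, 71.0 and 65.7 CPM in DMSO-S0 and at 79.3, 81.9 and 80.7 CPM in DMSO-S30. Its rise of 0.22 on the log2 scale (edgeR adjusted p = 0.00893) was 0.15 and not past the threshold without DMSO-S0 replicate 3 (adjusted p = 0.103). SOCS5 (ENSG00000171150.7, chr2:46698952-46763129, plus strand), which lies within the lncRNA gene LINC01118 on the same strand, had a log2 fold change of -0.09 (95% interval -0.23 to 0.05, edgeR adjusted p = 0.330). SOCS7 (ENSG00000274211.4, chr17:38352228-38405593, plus strand) had one of 0.05 (-0.08 to 0.17, adjusted p = 0.605). Libraries with and without serum overlapped in SOCS5 and SOCS7.

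In dTAG-treated cells serum raised 4 of the 9 genes, LIF, SOCS3, SOCS2 and SOCS6, and lowered SOCS5 (dTAG-S30 against dTAG-S0). Over all genes tested 24.4% were called there, 9.04% as higher and 15.4% as lower, and the median log2 fold change was 0.31 over the members against -0.06 over all genes. LIF went from 28.9, 29.8 and 31.0 CPM to 66.5, 56.7 and 62.7 CPM. The groups again did not overlap, and the rise was 2.04-fold (log2 1.03, SE 0.0758, edgeR adjusted p = 2.48e-11). SOCS3 went from 19.8, 15.5 and 17.6 CPM to 20.9, 24.4 and 26.0 CPM, where dTAG-S30 replicate 1 lay just above dTAG-S0 replicate 1. Its rise was 1.34-fold (log2 0.42, SE 0.0962, edgeR adjusted p = 0.00189).

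SOCS2 rose from 20.7, 19.6 and 21.0 CPM to 25.4, 26.1 and 25.7 CPM in dTAG-treated cells (log2 0.32, edgeR adjusted p = 0.00493), with no overlap. SOCS6 rose from 119, 112 and 112 CPM to 145, 147 and 135 CPM (log2 0.31, edgeR adjusted p = 0.000158), also with no overlap. SOCS5 was at 77.0, 81.3 and 72.9 CPM in dTAG-S0 and at 66.9, 71.5 and 64.1 CPM in dTAG-S30, and its highest library with serum lay just below its lowest without. The log2 fold change of SOCS5 was -0.19 (edgeR adjusted p = 0.0339) beside the all-gene median of -0.06, and the call was lost under TMM scaling (-0.13, adjusted p = 0.190), with spike-in library sizes (-0.16, 0.228), in DESeq2 (-0.13, 0.189) and with no count filter (-0.17, 0.0585). It was also lost without dTAG-S0 replicate 2 (-0.15, adjusted p = 0.142), dTAG-S30 replicate 1 (-0.18, 0.0747) or dTAG-S30 replicate 3 (-0.14, 0.147).

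The other 4 members did not pass in dTAG-treated cells. SOCS1 was at 3.30, 2.42 and 3.71 CPM without serum and at 3.50, 3.94 and 5.12 CPM with it, which overlapped. Its log2 fold change was 0.34 (95% interval -0.03 to 0.72, edgeR adjusted p = 0.175), and it passed without DMSO-S0 replicate 1 (0.49, adjusted p = 0.0372). Without dTAG-S0 replicate 2 it was 0.18 (edgeR adjusted p = 0.557). For SOCS4 the log2 fold change was 0.02 (-0.10 to 0.15), for CISH 0.04 (-0.27 to 0.34) and for SOCS7 0.00 (-0.12 to 0.12), with edgeR adjusted p-values of 0.832, 0.891 and 0.994.

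When KAP1 was depleted in starved cells (dTAG-S0 compared with DMSO-S0), none of the 9 genes passed an edgeR adjusted p under 0.05, where 1.28% of all genes tested were called. At an unadjusted p under 0.05 there were 2 of 9, LIF and SOCS6, against 11.5% of all genes tested, and DESeq2 also called 0. LIF was 1.19-fold higher with dTAG (log2 0.25, 95% interval 0.09 to 0.42, edgeR adjusted p = 0.155). Its 3 dTAG-S0 libraries lay just above the highest DMSO-S0 library, replicate 1, and without that library LIF passed the test (log2 0.34, adjusted p = 0.0395), while without DMSO-S0 replicate 2 its value was 0.18 (adjusted p = 0.445). SOCS6 was 1.13-fold higher (log2 0.18, 0.06 to 0.30, edgeR adjusted p = 0.158). The groups did not overlap in 3 of the 9 genes, LIF, SOCS4 and SOCS6, against 17.8% of all genes tested. CISH had a log2 fold change of 0.22 (-0.09 to 0.53) that came with 1 high library, dTAG-S0 replicate 1 at 7.07 CPM beside 5.11 and 5.13 in the other two, and was 0.06 without that library.

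With serum (dTAG-S30 against DMSO-S30) again none of the 9 genes was called by edgeR or DESeq2, against 1.21% of all genes tested, and 2 of 9 had an unadjusted p under 0.05, SOCS3 and SOCS6, against 10.4% of all genes tested. SOCS3 had a log2 fold change of -0.26 with dTAG (-16.4%, 95% interval -0.45 to -0.06, edgeR adjusted p = 0.257), and its highest dTAG library, at 26.0 CPM, lay just below the lowest DMSO library, at 26.5 CPM. Without dTAG-S30 replicate 1 the value of SOCS3 was -0.15 (edgeR adjusted p = 0.530). SOCS6 had one of 0.15 (0.03 to 0.26, edgeR adjusted p = 0.310) and its groups did not overlap either. Groups thus did not overlap in 2 of the 9 genes, against 15.7% of all genes tested. LIF had overlapping libraries and a log2 fold change of 0.07 (-0.08 to 0.22, edgeR adjusted p = 0.814). The other 6 members ranged from -0.15 in SOCS1 to 0.05 in CISH, and all their groups overlapped.

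The interaction, which tests whether the serum response differed between the treatments, was called for none of the 9 genes, against 0.0382% of all genes tested. SOCS3 (log2 -0.32, 95% interval -0.61 to -0.03) and SOCS4 (-0.20, -0.38 to -0.02) had an unadjusted p under 0.05, against 3.06% of all genes tested, and their adjusted p was 1.0. Without dTAG-S30 replicate 1 the value of SOCS3 was -0.19, and without DMSO-S0 replicate 3 that of SOCS4 was -0.13. DESeq2 also called 0. For LIF the interaction was -0.19 (-0.42 to 0.05, edgeR adjusted p = 1.0), and it lay between -0.31 (without dTAG-S30 replicate 1) and -0.07 (without DMSO-S0 replicate 3) when 1 library was left out. The fitted interaction was below 0 in all 9 genes, from -0.32 in SOCS3 to -0.03 in SOCS6, with a median of -0.16 against 0.00 over all genes tested, although SOCS2, SOCS6 and SOCS7 crossed to just above 0 when a single library was left out. The 4 groups enter the serum, dTAG and interaction comparisons more than once, so these values are not independent of each other.

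**Figure D3:**
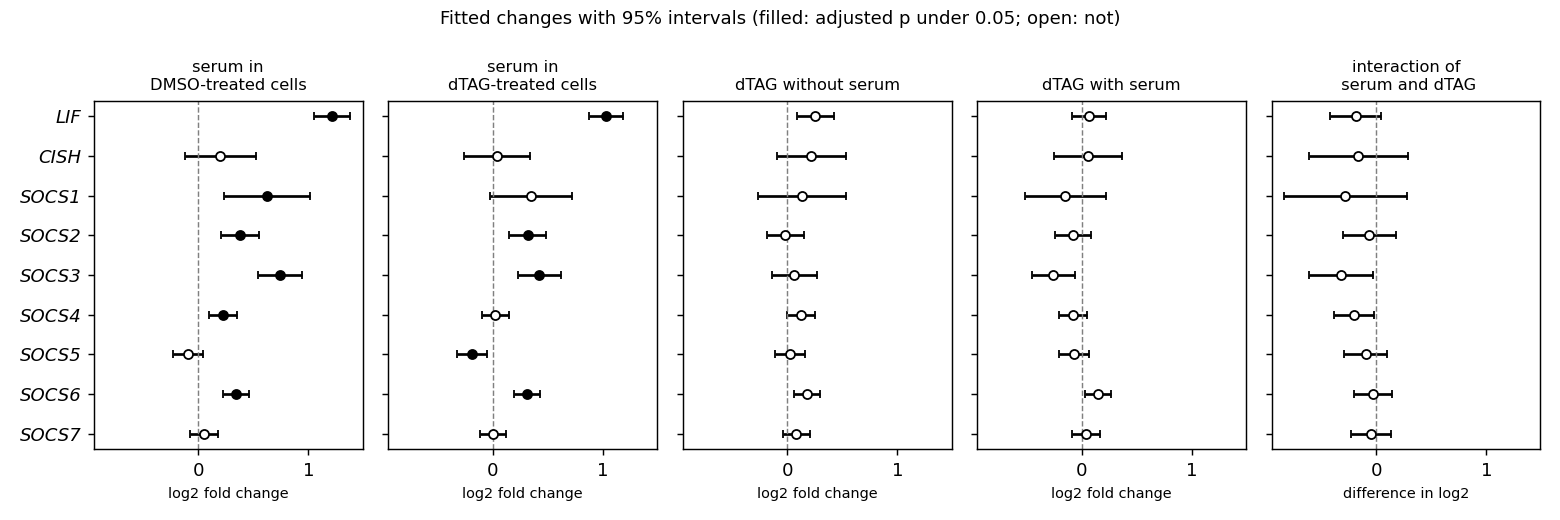
Fitted log2 fold changes (points) with 95% intervals (bars) of the 9 genes in the 4 comparisons and, on the right, the interaction. Filled points passed an edgeR adjusted p under 0.05; these are 6 members for serum in DMSO-treated cells, 5 for serum in dTAG-treated cells (SOCS5 below 0) and none for dTAG or the interaction.

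The rest of the pathway was read from 8 lists holding 86 genes, of which 76 were tested. With serum in DMSO-treated cells 15 rose and 10 fell, with a median log2 fold change of -0.01. In dTAG-treated cells 15 rose and 7 fell, with a median of -0.02. Over all genes tested 9.23% were called higher and 16.6% lower in DMSO-treated cells, and 9.04% higher and 15.4% lower in dTAG-treated cells. Most rises were in the list of genes known to respond to STAT factors, where 10 of 16 rose and none fell in either treatment, with medians of 0.58 and 0.52. The 6 largest changes of all lists were in this list. FOS, an AP-1 subunit and immediate early gene, had a log2 fold change of 6.48 in DMSO-treated and 6.31 in dTAG-treated cells (edgeR adjusted p = 7.93e-27 and 9.74e-27). JUNB, another AP-1 subunit, had values of 3.08 and 2.60, CEBPD (a C/EBP transcription factor) 1.75 and 1.26, BCL3 (an atypical I-kappa-B protein) 1.45 and 1.25, BCL6 (a transcriptional repressor) 1.42 and 1.08, and MCL1 (a survival protein) 1.02 and 0.84. FOS, JUNB and MCL1 are also known as genes of the growth factor response.

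Over all genes tested 25.9% were called with serum in DMSO-treated cells, 9.23% as higher and 16.6% as lower. The counts of the lists that follow are to be read against these shares. None of the 4 other IL-6 family ligands tested passed in either treatment, and IL11, CTF1, CLCF1 and CNTF ranged from 0.635 to 2.67 CPM over all libraries. Among 16 cytokine receptors 2 rose and 2 fell in DMSO-treated cells. The next genes are named because their lists held 5 calls or fewer, after their values were seen. The receptors that rose were IL4R (log2 0.39, edgeR adjusted p = 0.000239) and EPOR (0.35, 0.0363). Those that fell were LIFR, the receptor chain of LIF (-0.23, 0.0339), and IL22RA1 (-0.59, 0.0150). Libraries with and without serum overlapped in EPOR and IL22RA1. LIFR was at 35.8 ± 2.31 CPM in DMSO-S0 and 31.0 ± 0.725 CPM in DMSO-S30 (SD, n = 3). Of the 4 JAK kinases in DMSO-treated cells JAK3 fell (-0.38, adjusted p = 0.0260), and of the STAT factors STAT3 rose, by 1.44-fold (log2 0.52, adjusted p = 1.11e-07). In dTAG-treated cells IL22RA1 and JAK3 were not called. There 3 receptors rose and 2 fell, with OSMR (0.19, edgeR adjusted p = 0.0187) and LEPR (-0.28, 0.0409) called only in that treatment.

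Among other inhibitors of the pathway, the phosphatase PTPN1, which removes phosphate from JAK kinases, rose 1.61-fold in DMSO-treated cells (log2 0.68, edgeR adjusted p = 6.65e-10) and 1.45-fold in dTAG-treated cells (0.53, 5.81e-08). The ubiquitin ligase CBL fell in DMSO-treated cells (-0.19, adjusted p = 0.0210) and was not called in dTAG-treated cells. PIAS2 fell in dTAG-treated cells (-0.22, edgeR adjusted p = 0.0120) and was not called in DMSO-treated cells. Of the 6 ligase partners of the SOCS box in DMSO-treated cells, RNF7 rose (0.35, 0.000210), and ELOC (-0.34, 0.000264) and RBX1 (-0.30, 0.00267) fell. In dTAG-treated cells only ELOC of these 6 was called (-0.39, edgeR adjusted p = 3.85e-05). Of 14 other SOCS box proteins none rose and 4 fell in DMSO-treated cells, SPSB2 (-0.55), ASB3 (-0.35), ASB7 (-0.33) and RAB40B (-0.30). Their list median was -0.16, against 0.34 for LIF, CISH and the SOCS genes. The RAB40B libraries of DMSO-treated cells with and without serum overlapped, and ASB3 was not called in dTAG-treated cells.

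**Figure D4:**
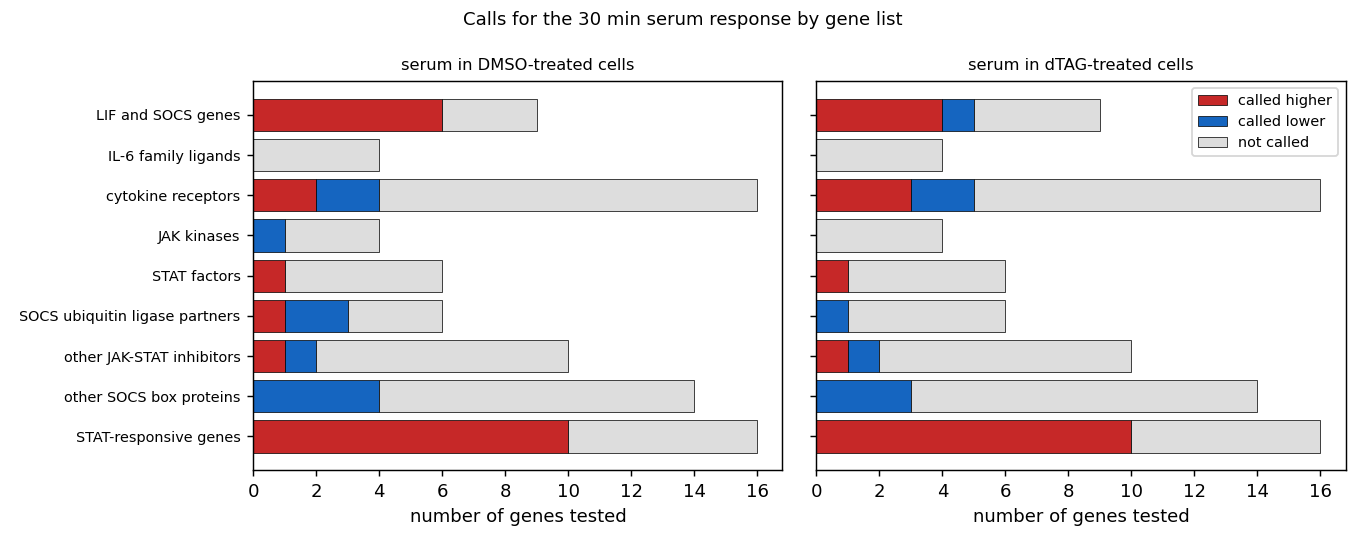
Number of genes tested in each list (bar length) that were called higher (red), called lower (blue) or not called (grey) for serum in DMSO-treated cells (left) and in dTAG-treated cells (right). The LIF and SOCS genes (6 of 9 and 4 of 9) and the STAT-responsive genes (10 of 16 in both) hold most of the higher calls. Over all genes tested 9.23% (left) and 9.04% (right) were called higher. The lists were chosen with earlier results of these data known.

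With dTAG 1 of the 76 pathway genes was called in each comparison, against 1.28% of all genes tested without serum and 1.21% with serum. Without serum it was IL6ST, the gp130 chain of the LIF receptor, which was higher (log2 0.25, edgeR adjusted p = 0.0365). It was at 80.6 ± 5.57 CPM in DMSO-S0 and 97.2 ± 0.498 CPM in dTAG-S0 (SD, n = 3). With serum it was FOS, which was lower (log2 -0.32, edgeR adjusted p = 0.0171), at 485 ± 43.7 CPM in DMSO-S30 and 392 ± 17 CPM in dTAG-S30 (SD, n = 3). The interaction was called for none of the 76 genes, against 0.0382% of all genes tested. Of the 76 genes 4 had an unadjusted p under 0.05, against 3.06% of all genes tested.

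The genes most like each serum-responsive member were taken by Pearson's r of log2 CPM over the 12 libraries, 6 with and 6 without serum, as a description. For LIF these were ERRFI1 (r = 0.993), an inhibitor of the EGF receptor, REL (0.992), a subunit of NF-kappa-B, and NPC1 (0.991), a cholesterol transporter. For SOCS3 they were TFAP2A (0.973), SLC2A3 (0.962) and HNRNPL (0.960), and for SOCS6 TSC22D3 (0.967), TEDC1 (0.964) and SERPINB1 (0.964). SOCS2 was most like GARIN5A (0.97), SOCS4 like CCNT1 (0.949) and SOCS1 like UBE2S (0.942).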

How the data were processed

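RNA-Seq libraries were made from ribosomal RNA-depleted RNA with ERCC spike-ins. Per the labels and the methods, the authors trimmed reads with Trim Galore 0.6.4, mapped them to hg38 with STAR and counted them with featureCounts (Subread 1.6.3) over whole protein-coding genes. Raw counts, with no normalization, were deposited. The strand setting and the number of factors the authors used are not given in the sources used here. Replicate numbers come from the titles. Same-numbered libraries deviated together (r over 0.1 in all 3 pairs, 0.22 to 0.33) only in the comparison of DMSO-S0 and DMSO-S30, so the numbers may pair the samples there. The main fit used no pairing in any comparison, and the replicate number entered as a block only in an alternative. Groups came from the sample titles, and the titles with Serum_0_30 were read as no serum.

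Genes were tested if 6 or more libraries held at least 10 counts (6808 were left out). Counts were scaled by the upper quartile, the ERCC transcripts gave 1 factor of unwanted variation as in RUVg, and 4 group means and the factor were fitted in edgeR 4.0.16 (R 4.3.3) with the two-sided quasi-likelihood F-test. P-values were adjusted by Benjamini-Hochberg over all 13093 genes. Intervals are 95% intervals of the fit. Normalised CPM use the scaled library sizes, log2 CPM a prior count of 2. Neither is corrected for the factor of unwanted variation, so fitted changes can differ from ratios of mean CPM. For SOCS1 with serum in DMSO-treated cells the fitted log2 fold change was 0.62, and 0.53 with no factor. The code was tested on simulated data. Alternatives were TMM, spike-in library sizes, no factor, the likelihood ratio test, DESeq2 1.42.0, no count filter, a replicate block and leaving out each library.

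The text names the 9 genes, TRIM28, at most the 6 listed pathway genes with the largest change among those called in each comparison, and the genes most like each serum-responsive member. Genes of lists with 5 calls or fewer, the tested IL-6 family ligands and the STAT-responsive genes not called were named after their values were seen. The members and lists were chosen with earlier results of these data known. Overlaps and exonic lengths come from GENCODE v44, which may differ from the annotation the authors used, and promoters from RefSeq. Sampling error of counts covers reads and not amplification.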

Additional observations from a re-analysis of the deposited data

Results flagged for a closer look

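The fitted change of SOCS4 with dTAG had opposite signs at the 2 serum levels, and neither change was called. Without serum all 3 dTAG libraries lay above the mean of the DMSO libraries (log2 fold change 0.12, edgeR adjusted p = 0.458). With serum all 3 lay below it (-0.08, edgeR adjusted p = 0.714), and there the groups overlapped. The difference was tested as the interaction, which was -0.20 with an unadjusted p under 0.05 and an edgeR adjusted p of 1.0, so it was not past the threshold over all genes tested. Without DMSO-S0 replicate 3 the interaction was -0.13. No other of the 9 genes showed this pattern in all libraries, and its share over all genes tested was not counted.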

How the results depend on the processing

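Serum in DMSO-treated cells raised 6 members under each of the 7 alternatives other than single libraries, and 5 to 6 when 1 library was left out. In dTAG-treated cells 4 or 5 were called under the 7 alternatives (SOCS5 was the gene lost) and 4 to 6 without 1 library. Counts for dTAG were 0 under the 7 alternatives, and without 1 library they were 0 to 1 without serum (LIF, without DMSO-S0 replicate 1) and 0 with serum and for the interaction.

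Leaving out 1 library turned the sign only of values that were not called. For serum in dTAG-treated cells the log2 ranges were -0.050 to 0.20 (CISH), -0.017 to 0.099 (SOCS4) and -0.029 to 0.056 (SOCS7). For dTAG without serum they were -0.031 to 0.30 (SOCS1), -0.073 to 0.030 (SOCS2), -0.059 to 0.15 (SOCS3), -0.026 to 0.081 (SOCS5) and -0.11 to 0.0026 (TRIM28), and with serum -0.028 to 0.12 (LIF), -0.015 to 0.070 (SOCS7) and -0.092 to 0.032 (TRIM28). For the interaction they were -0.15 to 0.011 (SOCS2), -0.060 to 0.0090 (SOCS6), -0.098 to 0.010 (SOCS7) and -0.055 to 0.098 (TRIM28). The cause was not tested.

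Same-numbered libraries had a correlation over 0.1 in all 3 pairs for serum in DMSO-treated cells, but in 1, 2 and 1 of 3 pairs for serum in dTAG-treated cells, dTAG without serum and dTAG with serum. With the replicate number as a block, 6 members were called for serum in DMSO-treated cells, 5 in dTAG-treated cells and 0 in the other 3 comparisons, as without it, and the block changed no member's call.

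Depth limited SOCS1 and CISH most, with 56 to 113 and 95 to 150 counts per library and the widest intervals. LIF, SOCS2 and SOCS3 had 315 to 1482 counts and the other members more.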
